A study of Mus musculus with 9 samples.

Results

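The 10 genes described here, *Arntl*, *Npas2*, *Clock*, *Cry1*, *Per1*, *Per2*, *Per3*, *Nr1d1*, *Dbp* and *Tef*, form the core and the direct output of the circadian clock. They were chosen by name with their read counts in these 9 kidney libraries already known, and which of the 3 comparisons led to the choice is not recorded. Their differences between groups are therefore given as a description, without a test, and the counts of members past the threshold support nothing. All 10 members were found among the 21935 genes of the table, and all 10 passed the filter on low counts that left 14069 genes.

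The clock is a transcriptional loop that runs in nearly every cell. BMAL1, the product of *Arntl*, pairs with CLOCK or NPAS2 and activates genes through E-boxes, among them the period and cryptochrome genes, whose proteins return to inhibit the activators. REV-ERBα, the product of *Nr1d1*, represses *Arntl* and *Npas2* through RORE elements, while *Dbp* and *Tef* encode PAR bZIP factors that carry the rhythm to output genes through D-boxes. In kidney most of these genes cycle over the day, and the clock controls transporters of salt, water and organic solutes.

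Kidney RNA was compared between *Gsdmd*-/- mice given pristane (GKO), wild-type mice given pristane (PIL, pristane-induced lupus) and wild-type control mice given saline (Con), with 3 libraries in each group. Pristane, an oil, is used to bring on lupus in mice. All mice were C57BL/6 and labelled female, received a single intraperitoneal dose of 0.5 ml at 4 weeks of age, and were killed 31 weeks later. *Gsdmd*-/- is a whole-animal knockout, not a Cre-driven one, and which part of the gene it lacks is not given. In the sample labels, treatment is entered as none for GKO and also for Con. That the GKO mice received pristane is taken from the study's methods and group names, and saline for Con from the treatment protocol. Mice were kept on a light-dark cycle, but the sources used here give neither the time of day of kidney collection nor whether each library came from its own mouse. The p-values below measure the spread between libraries, which may be technical, and sampling time cannot be told apart from group.

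*Gsdmd* itself was counted at 2.06, 2.04 and 1.61 CPM in the GKO libraries, against 6.56, 20.1 and 10.7 CPM in the PIL libraries and 7.06, 11.6 and 4.40 CPM in the Con libraries, where CPM is the gene's share of the TMM-scaled library in parts per 1000000. Every GKO library lay below every other library. Library totals ran from 13311063 to 16299328 counts. Reads of 4 Y-linked genes summed to 0 in all GKO and PIL libraries and to 136, 141 and 208 CPM in Con, although the labels describe every mouse as female, so sex cannot be told apart from treatment in either comparison with Con. Summed CPM of 10 macrophage markers was 223 to 346 in GKO, 1801, 1194 and 397 in PIL replicates 1, 2 and 3, and 150 to 463 in Con. The sum of 11 kidney-defining genes was 14357 to 14618 CPM in GKO, 7346, 10817 and 14673 CPM in PIL, and 12018 to 13088 CPM in Con, so all libraries held kidney RNA and PIL replicate 3 stood apart from the other PIL libraries. In bulk tissue, fewer cells of a type and less RNA per cell cannot be told apart.

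Promoter sequence is shown for the members whose start regions held one of the clock elements. The genes are ordered below by the role of their products in the loop, not by these elements. RefSeq promoters (GRCm38.p6, 250 bases before to 50 after each start) were found for 9 of the 10 members, as 14 promoters, with none for *Per2*. Both strands were searched for the E-box CACGTG, the RORE TAGGTCA, the D-box TTANNTAA and the cAMP response element TGACGTCA, which were held by 7.15%, 2.61%, 6% and 1.79% of all 32851 promoters in that order. An E-box occurred in 3 members, the RORE in 1, a D-box in 2 and the cAMP response element in 0, and no matches overlapped. These counts are per gene, over 1 or more promoters each, while the percentages are per single promoter, so they are not like for like. A match is a description of the letters only. All coordinates are on GRCm38. In the stretches below the capitals mark the element.
Arntl promoter 2 (chr7:113207530-113207558, plus strand): aaggcagaaagTAGGTCAgggacggaggt
Cry1 promoter 1 (chr10:85185098-85185125, minus strand): gtgccggtggtCACGTGgggtgcatgcc
Per1 promoter 1 (chr11:69098772-69098799, plus strand): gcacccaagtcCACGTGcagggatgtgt
Per3 promoter 1 (chr4:151044805-151044881, minus strand): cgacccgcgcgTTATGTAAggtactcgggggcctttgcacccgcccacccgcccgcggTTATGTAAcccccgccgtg
Tef promoter 1 (chr15:81802488-81802562, plus strand): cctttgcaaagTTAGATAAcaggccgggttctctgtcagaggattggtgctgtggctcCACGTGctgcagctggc
Tef promoter 2 (chr15:81811265-81811292, plus strand): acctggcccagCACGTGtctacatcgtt
The RORE of *Arntl*, the site type bound by REV-ERBα, lay 30 to 36 bases after a transcript start. *Per3* held the same D-box at 2 places, at -205 to -198 and at -158 to -151, and *Tef* held a D-box at -174 to -167 followed by an E-box at -127 to -122.

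Among the activators, *Arntl* and *Npas2* were higher in every GKO library than in every PIL and every Con library. *Arntl* (chr7:113207465-113314126, plus strand) had 35.9, 38.5 and 36.6 CPM in the GKO libraries, 16.2, 17.5 and 20.2 CPM in the PIL libraries and 14.8, 26.3 and 14.4 CPM in the Con libraries. The GKO libraries lay close together, at 37.0 ± 1.35 CPM, against 17.9 ± 2.02 CPM in PIL and 18.5 ± 6.77 CPM in Con (mean ± SD, n = 3 each), and Con replicate 2 was the highest of the other 6 libraries. The difference was 2.06-fold between GKO and PIL, with a log2 fold change of 1.04 (SE 0.22), and 2.00-fold between GKO and Con, with 1.0 (SE 0.22). Between PIL and Con it was -0.04 (SE 0.22) on the log2 scale, with PIL inside the range of Con.

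*Npas2* (chr1:39193731-39363236, plus strand), which encodes a paralogue of CLOCK that also pairs with BMAL1, had 25.8, 28.9 and 23.5 CPM in the GKO libraries, 7.91, 6.80 and 6.70 CPM in the PIL libraries and 10.7, 17.2 and 8.06 CPM in the Con libraries. No 2 groups shared a range: GKO lay highest, PIL lowest and Con between them, with Con replicate 2 nearest to GKO. Log2 fold changes were 1.86 (SE 0.26) for GKO against PIL, a 3.64-fold difference, 1.12 (SE 0.25) for GKO against Con and -0.74 (SE 0.25) for PIL against Con.

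*Clock* (chr5:76209868-76304792, minus strand) did not share this pattern. It had 56.7, 69.7 and 66.3 CPM in the GKO libraries, 31.2, 42.3 and 59.8 CPM in the PIL libraries and 58.7, 48.3 and 72.2 CPM in the Con libraries, and the groups overlapped in each comparison. PIL replicate 1, the library with the highest macrophage sum, was lowest, and PIL replicate 3 lay within the GKO range, so the log2 fold change for GKO against PIL of 0.53 (SE 0.23) became 0.10 with PIL replicate 3 as the only PIL library, a fit in which the lone library is assumed to vary like those of the other groups. The part of cell composition in it was not tested. For GKO against Con the value was 0.10 (SE 0.23) and for PIL against Con -0.43 (SE 0.23). The log2 ratio of *Npas2* to *Clock* was -1.14, -1.27 and -1.50 in GKO, -1.98, -2.64 and -3.16 in PIL and -2.46, -1.49 and -3.16 in Con. The ratio was above every PIL value in all GKO libraries, and Con replicate 2 reached the GKO range.

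**Figure D1:**
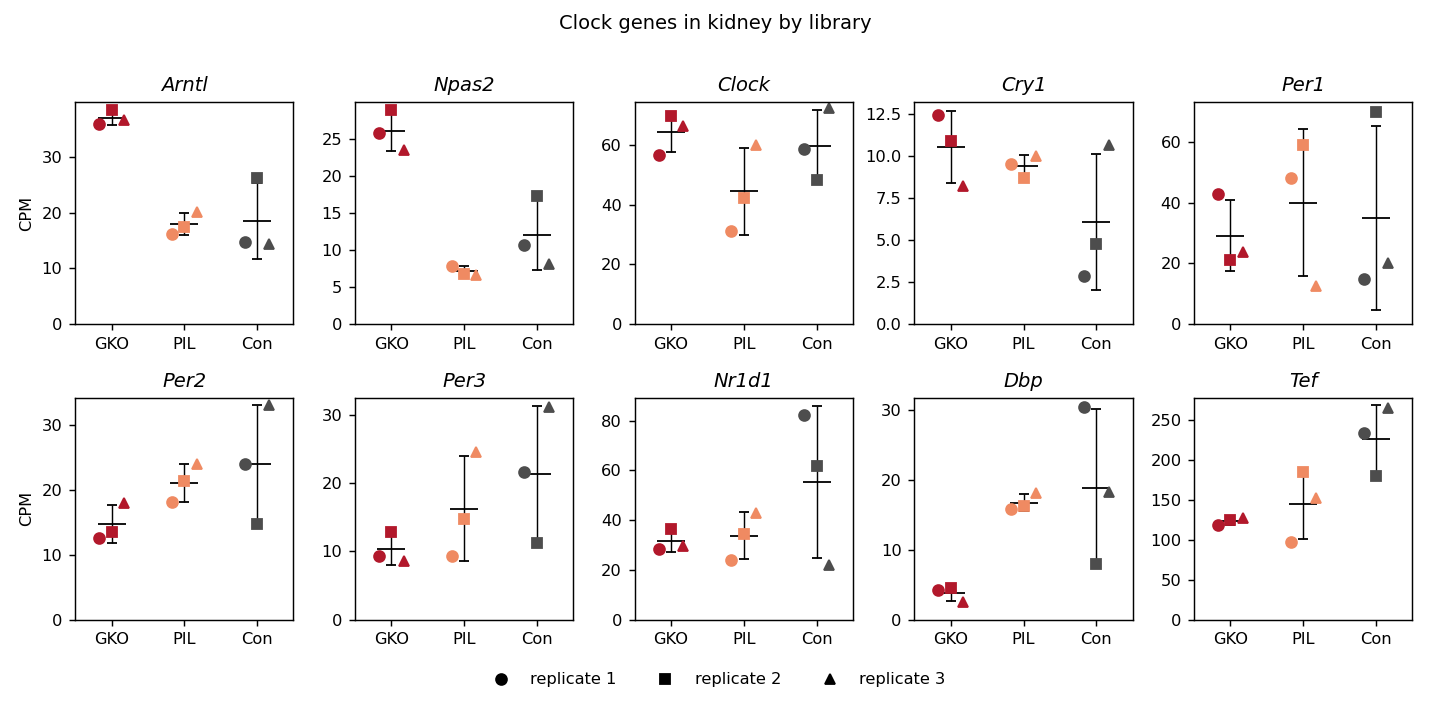
CPM (linear axis from 0) of the 10 clock genes in each library, with GKO, PIL and Con from left to right, markers for the replicate number, and horizontal bars with whiskers for the mean ± SD of 3 libraries. *Arntl* and *Npas2* lie highest and *Dbp* lowest in the GKO libraries, with *Dbp* at 2.54 to 4.62 CPM there.

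The PAR bZIP output genes lay on the other side. *Dbp* (chr7:45705088-45710203, plus strand), a widely used read-out of the clock's activator arm, had 4.32, 4.62 and 2.54 CPM in the GKO libraries, 15.9, 16.3 and 18.1 CPM in the PIL libraries and 30.4, 7.99 and 18.3 CPM in the Con libraries. All GKO libraries were below all others, the PIL libraries lay close together, and Con spread 3.81-fold from its highest to its lowest library, which was Con replicate 2. Means were 3.83 ± 1.12 CPM in GKO, 16.8 ± 1.18 CPM in PIL and 18.9 ± 11.2 CPM in Con (mean ± SD, n = 3 each). *Dbp* was 4.39-fold lower in GKO than in PIL, with a log2 fold change of -2.13 (SE 0.43), and 4.94-fold lower than in Con, with -2.31 (SE 0.43). PIL and Con overlapped, at -0.17 (SE 0.40). GKO *Dbp* rested on 63, 61 and 38 counts, against 241 to 284 counts in PIL and 107 to 414 in Con.

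*Tef* (chr15:81802421-81826863, plus strand), a relative of *Dbp*, was the member with the highest level per length. It had 118, 125 and 127 CPM in the GKO libraries, 97.5, 185 and 152 CPM in the PIL libraries and 233, 180.1 and 265 CPM in the Con libraries. GKO lay below Con without overlap, and both overlapped PIL, whose replicate 1 was the lowest of the 9 libraries. Log2 fold changes were -0.87 (SE 0.22) for GKO against Con, -0.23 (SE 0.22) for GKO against PIL and -0.64 (SE 0.22) for PIL against Con.

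The log2 ratio of *Arntl* to *Dbp* put both sides of the loop into 1 number per library. It was 3.05, 3.06 and 3.85 in GKO, 0.025, 0.10 and 0.15 in PIL, and -1.04, 1.72 and -0.35 in Con. GKO stood above all other libraries, PIL was narrow, and Con straddled PIL, with Con replicate 2 nearest to GKO.

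**Figure D2:**
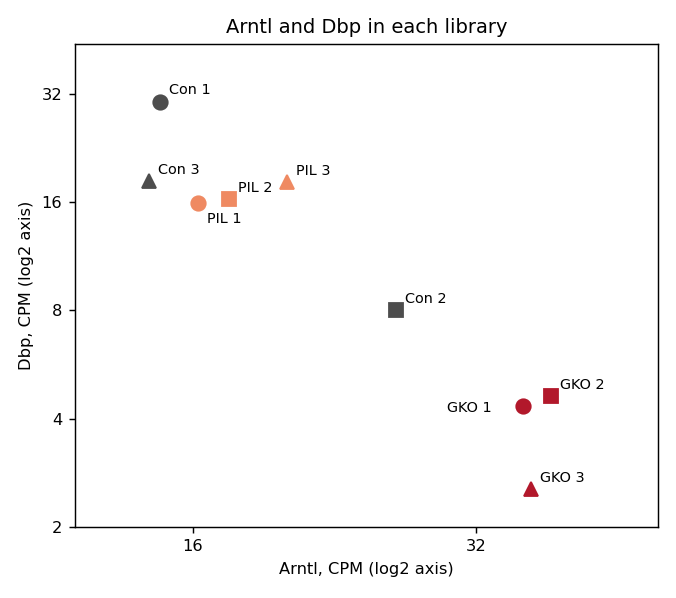
*Arntl* (horizontal) against *Dbp* (vertical) in CPM, both on log2 axes, for the 9 libraries, with color for the group and marker for the replicate number. The 3 GKO libraries lie at lower right, the 3 PIL libraries form a tight group near 16 to 18 CPM of *Dbp*, and Con 2 lies apart from Con 1 and Con 3.

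The period genes, which encode inhibitors of the activators, were lower in GKO on average, with overlap in most comparisons. *Per2* (chr1:91415982-91459324, minus strand) had 12.6, 13.5 and 18.1 CPM in the GKO libraries, 18.1, 21.4 and 23.9 CPM in the PIL libraries and 24.0, 14.7 and 33.1 CPM in the Con libraries. Every GKO library was below every PIL library by a narrow margin, and Con replicate 2 fell within the GKO range. Log2 fold changes of *Per2* were -0.52 (SE 0.27) for GKO against PIL, -0.70 (SE 0.27) for GKO against Con and -0.18 (SE 0.27) for PIL against Con. *Per3* (chr4:151003652-151044665, minus strand) had 9.39, 12.9 and 8.63 CPM in the GKO libraries, 9.36, 14.8 and 24.6 CPM in the PIL libraries and 21.7, 11.3 and 31.2 CPM in the Con libraries. GKO overlapped both other groups, through PIL replicate 1 and Con replicate 2, at -0.65 (SE 0.41) against PIL and -1.06 (SE 0.41) against Con, while PIL against Con gave -0.40 (SE 0.41).

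*Per1* (chr11:69095217-69109960, plus strand), the period gene that also responds acutely to glucocorticoids and cAMP, followed neither of them. It had 42.7, 21.0 and 23.8 CPM in the GKO libraries, 48.1, 58.9 and 12.7 CPM in the PIL libraries and 15.0, 69.8 and 20.2 CPM in the Con libraries. High and low libraries occurred in every group, with Con replicate 2 highest and PIL replicate 3 lowest, so the log2 fold changes of -0.45 (SE 0.65), -0.26 (SE 0.65) and 0.19 (SE 0.65) for GKO against PIL, GKO against Con and PIL against Con were each smaller than their standard errors. With PIL replicate 3 as the only PIL library, GKO against PIL became 1.19, and without Con replicate 2, GKO against Con became 0.73.

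*Cry1* (chr10:85131700-85185064, minus strand), the cryptochrome among the members, had 12.5, 10.9 and 8.23 CPM in the GKO libraries, 9.53, 8.71 and 10.0 CPM in the PIL libraries and 2.87, 4.78 and 10.6 CPM in the Con libraries. GKO and PIL lay at like levels, while Con replicates 1 and 2 were below both and Con replicate 3 was not. Its log2 fold changes were 0.16 (SE 0.39) for GKO against PIL, 0.78 (SE 0.40) for GKO against Con and 0.62 (SE 0.40) for PIL against Con. *Nr1d1* (chr11:98767932-98775333, minus strand) mirrored it within Con, with 28.6, 36.6 and 29.6 CPM in the GKO libraries, 24.1, 34.4 and 42.8 CPM in the PIL libraries and 82.2, 61.9 and 22.2 CPM in the Con libraries. Con replicates 1 and 2 were above all other libraries and Con replicate 3 was below all others. *Nr1d1* differed by -0.09 (SE 0.40) between GKO and PIL, -0.81 (SE 0.40) between GKO and Con and -0.72 (SE 0.40) between PIL and Con. The GKO libraries had *Nr1d1* within the PIL range and within the wider Con range. The part of *Nr1d1* in the *Arntl* and *Npas2* levels was not tested.

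**Figure D3:**
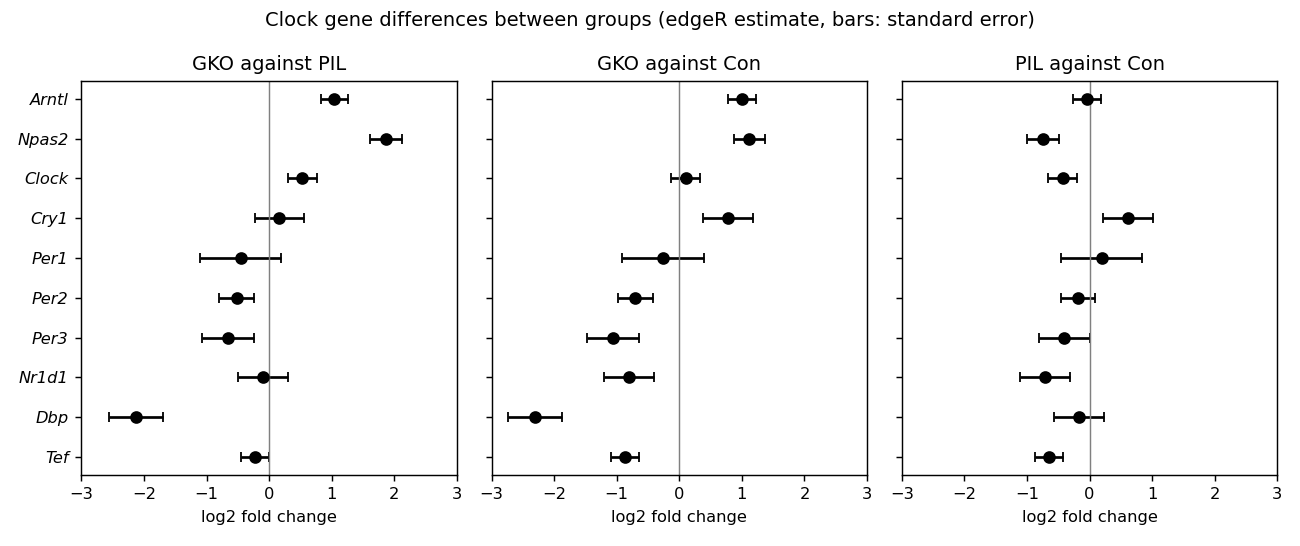
Log2 fold change of each clock gene (horizontal axis) for GKO against PIL, GKO against Con and PIL against Con, from edgeR's fit, with bars for the standard error. *Npas2* and *Dbp* stand farthest from 0 in GKO against PIL, at 1.86 and -2.13, and no member reaches 1 in size in PIL against Con.

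Counted over all 10 members with edgeR's quasi-likelihood test (Benjamini-Hochberg adjusted p under 0.05 over all 14069 genes), GKO against Con called *Arntl* and *Npas2* higher and *Dbp* lower, where 1.55% of all genes tested were called higher and 1.46% lower. There 2 members were higher and 4 lower at an unadjusted p under 0.05, against 1080 and 975 of all genes. PIL against Con called 0 members, where 4.48% of all genes were called higher and 3.14% lower. In PIL against Con 2 members had an unadjusted p under 0.05, against 2165 genes higher and 1722 lower over all genes. In the same comparison DESeq2 called 2 members of 2278 genes, and limma-voom 5 members of 6223 genes. GKO against PIL called 0 members with edgeR, where 0% of all genes were called higher and 0% lower. In that comparison 4 members, and over all genes 1116 higher and 1826 lower, had an unadjusted p under 0.05. DESeq2 called 3 members (*Arntl*, *Npas2* and *Dbp*) of 887 genes, and limma-voom 6 members of 6443 genes. Groups did not overlap for 4 members in GKO against PIL (27.9% of all genes), 4 in GKO against Con (24.8%) and 1, *Npas2*, in PIL against Con (25.2%). The median log2 fold change of the members was -0.16, -0.48 and -0.29 in these comparisons, against -7e-04, -0.01 and 0.01 over all genes. Because the choice of members used these contrasts, nothing is read from these shares.

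The 3 calls in GKO against Con were lost when Con replicate 1, or GKO replicate 1, 2 or 3, was left out, with 0 members called each time. Without PIL replicate 2 only *Dbp* was called, and without Con replicate 3 the calls were *Cry1*, *Nr1d1* and *Dbp*. Without Con replicate 2, which lay nearest to GKO, the log2 fold changes for GKO against Con were 1.34 for *Arntl*, 1.48 for *Npas2* and -2.67 for *Dbp*. In GKO against PIL they were 1.14, 1.83 and -2.07 without PIL replicate 3, when 4 members (*Arntl*, *Npas2*, *Clock* and *Dbp*) were called, and 0.87, 1.95 and -2.25 with PIL replicate 3 as the only PIL library.

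The clock genes also varied within groups, and most of all within Con. The range between the highest and lowest library was largest in GKO for 0 of 10 members, in PIL for 2 and in Con for 8, whereas over all genes tested it was largest in GKO for 11.3%, in PIL for 54.8% and in Con for 33.9%. The median range of the members was 0.43 log2 units in GKO, 0.61 in PIL and 1.31 in Con, against 0.25, 0.53 and 0.42 over all genes. Because the members were chosen with these counts known, the choice may bear on these spreads, which are given as a description only. The Con libraries differed from each other in a gene-specific way. Con replicate 1 had the highest *Dbp* and *Nr1d1* and the lowest *Cry1* of the 9 libraries, Con replicate 2 the highest *Per1*, and Con replicate 3 the highest *Per2*, *Per3* and *Tef* and the lowest *Arntl* and *Nr1d1*. Whether sampling time took part in this was not tested, since no time is given.

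Pearson correlations of log2 CPM over the 9 libraries are given as a description only, because the libraries share their groups. *Arntl* ran with *Npas2* (r = 0.91, rho = 0.67) and against *Dbp* (r = -0.95, rho = -0.87) and *Per2* (r = -0.81, rho = -0.85). After the group means were taken out, these were 0.81, -0.73 and -0.68, but the directions did not hold within each group. Within PIL, *Npas2* was highest where *Arntl* was lowest, and *Dbp* and *Per2* were highest where *Arntl* was highest, as *Dbp* was within GKO. *Per2* ran with *Per3* (r = 0.83), and *Cry1* against *Nr1d1* (r = -0.86). *Clock* (r = 0.35) and *Per1* (r = 0.11) were only loosely related to *Arntl*. With the 2 libraries farthest from the *Arntl* median left out, GKO replicates 2 and 3, r with *Arntl* was 0.83 for *Npas2* and -0.94 for *Dbp*.

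Per length, as FPKM over the 9 libraries, the order of mean levels was *Tef* (20.8, range 13.6 to 32.4), *Nr1d1* (13.0, 6.91 to 26.0), *Per1* (6.23, 2.25 to 11.9), *Dbp* (4.42, 0.847 to 9.91), *Clock* (4.06, 2.49 to 5.05), *Per2* (3.40, 2.15 to 5.43), *Arntl* (3.23, 1.83 to 4.88), *Npas2* (3.11, 1.40 to 5.75), *Cry1* (2.61, 0.836 to 3.73) and *Per3* (1.65, 0.896 to 3.11). Every pair of neighbours in this order had overlapping ranges. *Dbp* stood at 1.25 ± 0.352 FPKM in GKO against 5.90 ± 0.129 FPKM in PIL and 6.11 ± 3.68 FPKM in Con (SD, n = 3 each). *Npas2* stood at 5.34 ± 0.432 FPKM in GKO, above the GKO mean of *Dbp*, against 1.57 ± 0.210 FPKM in PIL, below the PIL mean of *Dbp*.

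Some members share exonic bases with a gene on the opposite strand, and the sources used here do not state whether counting used strand. *Dbp* shares 539 exonic bases (18% of its exons) with *Sphk2*, and *Nr1d1* shares 263 (8.55%) with *Thra*, the thyroid hormone receptor gene. *Sphk2* ran from 42.6 to 55.6 CPM and *Thra* from 41.5 to 60.1 CPM over the 9 libraries, a narrower range than that of *Dbp* or *Nr1d1*. *Tef* and *Arntl* share 193 and 33 exonic bases with antisense genes that were not counted.

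The other genes listed with the loop, 12 in all with 11 tested, included 1 call in each comparison with Con. This list and the other gene lists below were set up with earlier results of these data known. Their calls and p-values are therefore a description, not independent tests. From the later lists, called genes were named, apart from examples marked as picked. *Rora*, an activator that competes with REV-ERB at ROREs, had 51.9, 48.5 and 50.3 CPM in the GKO libraries, 24.1, 32.3 and 31.6 CPM in the PIL libraries and 40.0, 52.0 and 54.3 CPM in the Con libraries. PIL lay below both other groups without overlap, and edgeR called *Rora* lower in PIL than in Con (log2 fold change -0.73 (SE 0.15), adjusted p = 0.0238). GKO against PIL gave 0.78 (SE 0.15) with an adjusted p of 0.127. The log2 fold change against Con was -0.74 in the fit of the 6 PIL and Con libraries and -0.63 with PIL replicate 3 as the only PIL library, where the spread comes from the other groups, and neither was past the threshold (adjusted p = 0.0993 and 0.192, edgeR). *Bhlhe40* (DEC1), a repressor at E-boxes, had 116, 158 and 169 CPM in the GKO libraries, 111, 137 and 102 CPM in the PIL libraries and 93.9, 68.8 and 83.7 CPM in the Con libraries. It rose in GKO against Con (0.85 (SE 0.18), adjusted p = 0.0419, edgeR), with PIL between them on average (0.51 (SE 0.18) against Con, adjusted p = 0.114). This call was lost on leaving out 1 of several libraries (adjusted p up to 0.176, without GKO replicate 3).

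Of the 11 tested loop genes edgeR called 0 higher and 1 lower in PIL against Con, 0 in either direction in GKO against PIL (4 at an unadjusted p under 0.05, 2 called by DESeq2 and 4 by limma-voom) and 1 higher and 0 lower in GKO against Con. *Nr1d2*, which encodes REV-ERBβ, had 43.7, 50.6 and 45.0 CPM in the GKO libraries, 29.0, 50.4 and 64.0 CPM in the PIL libraries and 91.9, 67.8 and 88.8 CPM in the Con libraries. Every Con library lay above all others, at -0.84 (SE 0.25) for GKO against Con (adjusted p = 0.135, edgeR) and -0.80 (SE 0.25) for PIL against Con (adjusted p = 0.0819), neither past the threshold. *Ciart*, an E-box target that represses the loop, and *Timeless* were below both other groups in all GKO libraries, at -1.30 (SE 0.49) and -1.05 (SE 0.31) against PIL (adjusted p = 0.202 and 0.151, edgeR). *Ciart* did not exceed 2.57 CPM in any library. *Bhlhe41* (DEC2) was at 1.21 (SE 0.41) in PIL against Con (adjusted p = 0.0983, edgeR) and highest in PIL replicates 1 and 2. *Cry2* and *Hlf*, another PAR bZIP gene, had log2 fold changes of 0.33 and 0.49 in GKO against PIL, *Nfil3*, a repressor at D-boxes, 0.25, and *Arntl2* and *Tipin* -0.06 and -0.09, with edgeR's adjusted p between 0.370 and 0.926. *Rorb* was below the filter.

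**Figure D4:**
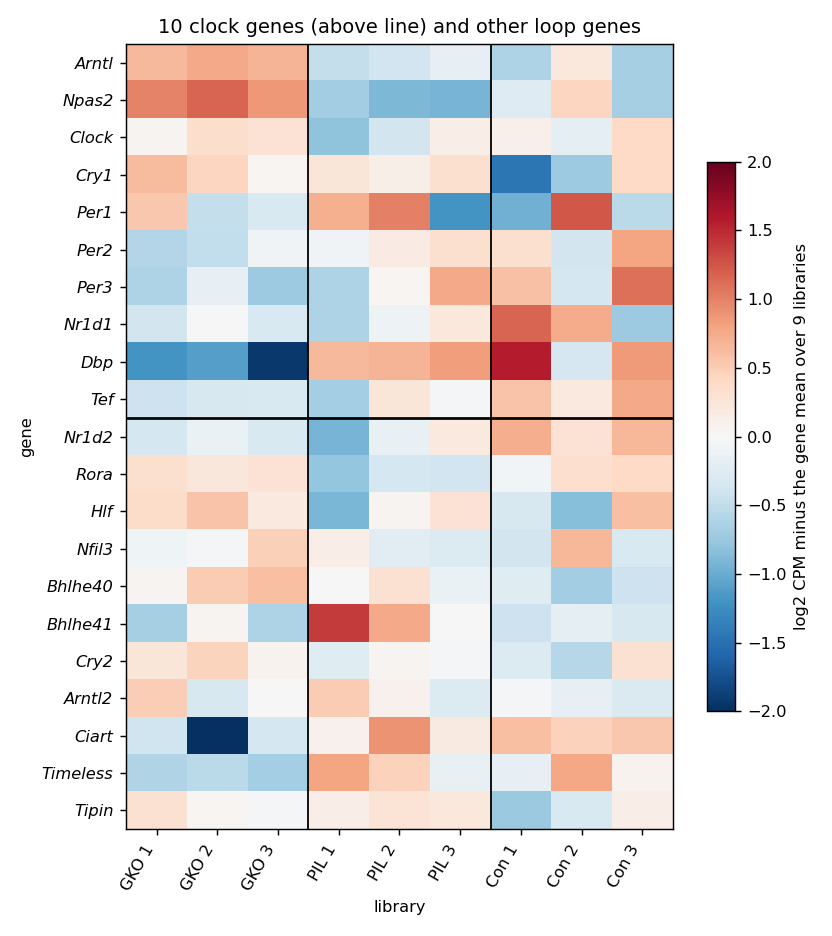
Log2 CPM minus the mean of the gene over the 9 libraries, for the 10 clock genes (above the line) and 11 other loop genes (rows) in the GKO, PIL and Con libraries (columns), from -2 (blue) to 2 (red). The GKO columns are red for *Arntl* and *Npas2* and blue for *Dbp*, while the Con columns differ among themselves in *Cry1*, *Per1*, *Nr1d1* and *Dbp*.

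Genes around the loop were counted in the same edgeR fit. For all lists, the counts over all genes are the background. At an unadjusted p under 0.05 these were 2165 higher and 1722 lower in PIL against Con and 1116 and 1826 in GKO against PIL. In GKO against Con they were 1080 and 975. For these 3 comparisons DESeq2 called 2278, 887 and 872 genes in all, and limma-voom 6223, 6443 and 2201. Among 30 kinases, ubiquitin ligases and cofactors that act on clock proteins, 0 were called in any comparison, with 9 in PIL against Con, 3 in GKO against PIL and 1 in GKO against Con at an unadjusted p under 0.05. For these comparisons DESeq2 called 4, 1 and 1 of the regulators, and limma-voom 15, 18 and 1. Among 17 tested output genes 0 were called higher and 1 lower in PIL against Con, and 0 in GKO against PIL and in GKO against Con (5 and 3 at an unadjusted p under 0.05, 1 and 1 called by DESeq2, 9 and 3 by limma-voom). The called gene was *Klf9*, a glucocorticoid- and clock-driven transcription factor, with 223, 228 and 202 CPM in the GKO libraries, 88.9, 149.8 and 131 CPM in the PIL libraries and 214, 262 and 259.6 CPM in the Con libraries. PIL lay below both other groups without overlap (log2 fold change -0.99 (SE 0.19) against Con, adjusted p = 0.0166). In the fit of the 6 PIL and Con libraries the log2 fold change was -1.0 and the call was lost (adjusted p = 0.0781, edgeR). *Klf9* was at 0.82 (SE 0.18) in GKO against PIL (adjusted p = 0.127, edgeR).

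Among 20 tested kidney transport genes reported to follow the clock, 1 was called higher and 2 lower in PIL against Con, 0 in GKO against PIL (4 at an unadjusted p under 0.05, 2 called by DESeq2 and 15 by limma-voom), and 0 higher and 1 lower in GKO against Con. *Slc22a6*, the organic anion transporter OAT1 of the proximal tubule, had 557, 602 and 512 CPM in the GKO libraries, 582, 446 and 551 CPM in the PIL libraries and 1204, 881 and 1005 CPM in the Con libraries. GKO and PIL overlapped and Con lay above both, with log2 fold changes against Con of -0.89 (SE 0.16) in GKO (adjusted p = 0.0222, edgeR) and -0.97 (SE 0.16) in PIL (adjusted p = 0.0117). The Con libraries are also those with Y-linked reads, and the part of sex in this difference cannot be told apart. *Slc6a9*, the glycine transporter GlyT1, was lower in PIL than in Con (-0.92 (SE 0.23), adjusted p = 0.0436, edgeR). *Edn1*, the endothelin-1 gene, was higher (2.42 (SE 0.50), adjusted p = 0.0229), at 16.5, 10.7 and 4.44 CPM in PIL against 1.10, 2.99 and 1.83 CPM in Con. *Edn1* was highest in PIL replicates 1 and 2, the libraries of high macrophage sum, and with PIL replicate 3 as the only PIL library, where the spread comes from the other groups, its log2 fold change was 1.16 (adjusted p = 0.399, edgeR). In the fit of the 6 PIL and Con libraries the PIL against Con calls of *Slc22a6*, *Slc6a9* and *Edn1* were lost, at log2 fold changes of -0.98, -0.94 and 2.41 (adjusted p = 0.0622, 0.135 and 0.0904). The *Slc6a9* call was also lost on leaving out any 1 library other than Con replicate 3 or PIL replicate 3 (adjusted p up to 0.138).

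The *Per1* pattern was set beside 13 tested glucocorticoid-responsive genes. Of these, 1 each had its highest level in GKO replicates 1 and 2, 2 in PIL replicate 1, 3 in PIL replicate 2 and 6 in Con replicate 2. The share of all genes tested that were highest in each library was not counted, so nothing is read from these counts. *Per1* was highest in Con replicate 2 and next in PIL replicate 2. edgeR called 0 of the 13 higher and 1, *Klf9*, lower in PIL against Con, and 0 in both comparisons of GKO. Of them 6 in GKO against PIL and 3 in GKO against Con had an unadjusted p under 0.05, and DESeq2 called 4 and 2, limma-voom 10 and 1. As examples picked after their values were seen, *Fkbp5*, which encodes a chaperone of the glucocorticoid receptor, had 38.9, 44.1 and 52.3 CPM in the GKO libraries, 51.6, 97.5 and 45.2 CPM in the PIL libraries and 119, 253 and 61.4 CPM in the Con libraries. *Tsc22d3* (GILZ) had 34.1, 26.3 and 28.3 CPM in the GKO libraries, 41.9, 75.5 and 38.8 CPM in the PIL libraries and 32.9, 115 and 52.0 CPM in the Con libraries. Con replicate 2 stood above all other libraries in both genes. The part of glucocorticoid signalling in *Per1* was not tested.

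**Figure D5:**
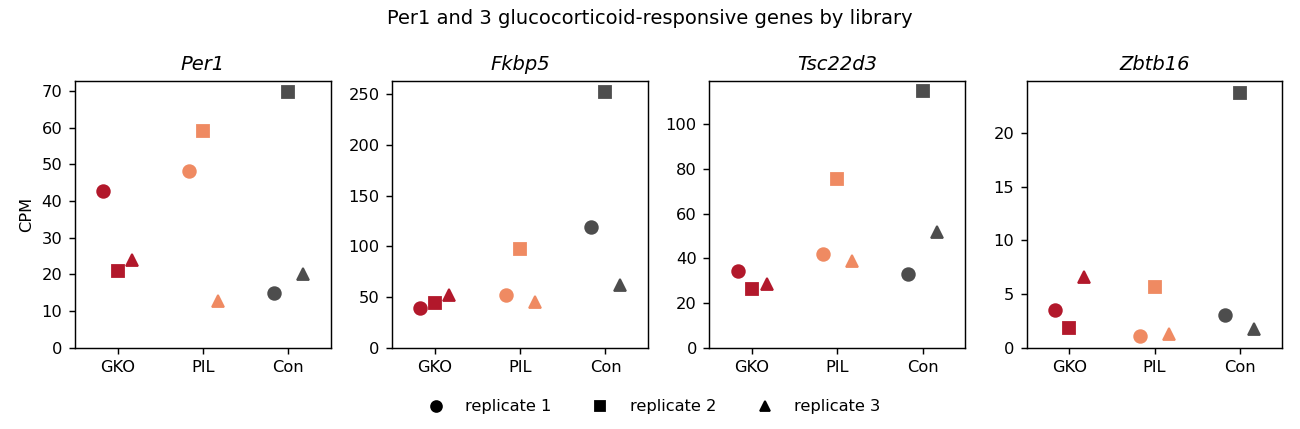
CPM (linear axes from 0) of *Per1* and of 3 glucocorticoid-responsive genes picked after their values were seen, by library, with GKO, PIL and Con from left to right and markers for the replicate number. Con replicate 2 is the highest point in every panel, at 69.8 CPM for *Per1*. Of the 13 tested glucocorticoid-responsive genes 6 were highest in that library, and the 3 shown are among them.

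Likeness to *Arntl* was measured over the 9 libraries (log2 CPM) among 11212 tested genes with a mean of at least 5 CPM. The 8 genes outside the members with the highest Pearson r were *Wrnip1* (0.96), *Hpd*, an enzyme of tyrosine breakdown (0.95), *Zfp275* (0.95), *Folh1*, a folate hydrolase (0.92), *Mrps35*, of the mitochondrial ribosome (0.92), *AU040320* (0.91), *Abhd17c* (0.91) and *G6pc*, the glucose-6-phosphatase that releases glucose (0.91). *Npas2*, at 0.91, stood just below the last of them. *Hpd* had 219, 492 and 287 CPM in the GKO libraries, 51.1, 86.0 and 57.2 CPM in the PIL libraries and 26.3, 98.1 and 28.8 CPM in the Con libraries, a wider span than that of *Arntl*, and Con replicate 2 was again the highest Con library. The 8 with the lowest r were *Ykt6*, a SNARE protein of membrane traffic (-0.96), *Cbfb* (-0.96), *Arfgap3* (-0.95), *Rpa1*, of the single-strand DNA binding complex (-0.93), *Pspc1* (-0.92), *Fam207a* (-0.92), *Hmox1*, heme oxygenase (-0.91), and *Ciapin1* (-0.91), and *Dbp*, at -0.95, fell among them. These are correlations over libraries that share their groups, and no p-value is given.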

How the data were processed

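Kidney RNA-seq was analysed in 9 libraries, 3 each of GKO, PIL and Con. Per the study's methods, paired reads were aligned by the authors (Hisat2, mm10) and assigned to genes with HTSeq. TopHat2 is also named. Versions, annotation and strand setting are not given in the sources used here. The deposited counts are raw reads per gene, not normalized. The FPKM values deposited by the authors scale these counts by library size and gene length, and served to order levels between genes, with group means for *Dbp* and *Npas2* beside that order. Columns of other samples numbered 0.

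edgeR's filterByExpr with default settings removed low genes (14069 kept of 21935, of which 17680 had a count). After TMM scaling, the quasi-likelihood F-test of edgeR (robust) was fitted over all 3 groups, with 6 residual degrees of freedom. Calls were made at a Benjamini-Hochberg adjusted p under 0.05, and the prior count of log2 CPM was 2. The code was tested on simulated data. Software was edgeR 4.0.16, DESeq2 1.42.0 and limma 3.58.1 in R 4.3.3. Alternatives were RLE scaling, no filter, DESeq2, limma-voom with quality weights, the 6 libraries of a comparison, a replicate block and each library left out. PIL replicate 3 as the only PIL library was added after the data had been seen.

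The members and lists were chosen with earlier results of these data known. Named were all members and loop genes, up to 4 called genes of each other list, and the 8 genes most and 8 least like *Arntl*. Examples outside this rule are marked in the text. *Gm129* and *Cyr61*, of the output and immediate early lists, had no row. A further gene of the loop list is not reported here. Gene spans of the members were the same in GENCODE M21 (GRCm38, the assembly of mm10) and in the table. Promoters are from RefSeq, GRCm38.p6. No 2 libraries were duplicates: within groups, counts differed by 8.28 to 149 times counting variance per gene.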

Additional observations from a re-analysis of the deposited data

How the results depend on the processing

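The number of genes called depended strongly on the method. In PIL against Con edgeR called 1072 genes, DESeq2 2278, limma-voom 6223, the fit of 6 libraries 130 and PIL replicate 3 as the only PIL library 212, with 226 (without PIL replicate 2) to 3684 (without PIL replicate 3) on leaving out 1 library. In GKO against PIL the numbers were 0, 887, 6443, 1 (*Npas2*) and 1, with 0 to 3204 (without PIL replicate 3), and in GKO against Con 423, 872, 2201 and 766 (6 libraries), with 105 (without Con replicate 1) to 705.

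Members called in PIL against Con were 0 with edgeR, 2 with DESeq2 and 5 with limma-voom, and 0 to 3 (without Con replicate 3) on leaving out 1 library. In GKO against PIL they were 0, 3, 6 and 1 (6 libraries), with 0 to 4 (without PIL replicate 3), and 1, *Npas2*, without Con replicate 2. In GKO against Con they were 3 with edgeR and 8 with limma-voom, with 0 to 4. DESeq2 added *Tef* to the 3 calls there, and the 6-library fit called *Arntl*, *Dbp* and *Tef*. Under the alternatives 540 values of members stayed within 1 SD of replicates (correlations within 0.1), 29 moved further, and 0 of the called ones changed sign. Leaving out 1 of 3 libraries can hardly move a fold change by that much, so the 540 values do not show stability. Among members not called the sign was less stable. *Per1* in PIL against Con, at 0.19, was -1.46 with PIL replicate 3 only and 1.48 with limma-voom. On leaving out 1 library it ran from -0.19 (without PIL replicate 2) to 1.18 (without Con replicate 2).

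Other loop genes called in PIL against Con were 1 with edgeR, 2 with DESeq2, 5 with limma-voom, 0 with 6 libraries and 0 with PIL replicate 3 only, and 0 to 3 on leaving out 1 library. In GKO against PIL they were 0, 2 and 4, with 0 to 3, and in GKO against Con 1, 2, 4 and 2 (6 libraries), with 0 to 2. *Rora* in PIL against Con lost its call without Con replicate 2 or 3 or PIL replicate 2 (adjusted p up to 0.0662). *Bhlhe40* in GKO against Con lost it without any 1 of the Con libraries, PIL replicate 2 or GKO replicate 2 or 3 (up to 0.176), as *Slc22a6* did without Con replicate 1 or any GKO library (up to 0.114) and *Hsp90aa1* without any 1 Con or GKO library or PIL replicate 2 (up to 0.205). In PIL against Con the highest adjusted p on leaving out 1 library was 0.0548 for *Slc22a6* (without PIL replicate 2), and without Con replicate 1 it was 0.0887 for *Edn1*, 0.138 for *Slc6a9*, 0.112 for *Klf4*, 0.138 for *Atf3* and 0.105 for *Hspd1*. These calls were also lost without Con replicate 3 or PIL replicate 2 (*Edn1*, *Klf4*, *Hspd1*), PIL replicate 1 or GKO replicate 2 (*Klf4*), any GKO library (*Hspd1*), any library but PIL replicate 3 (*Atf3*) and any but Con replicate 3 and PIL replicate 3 (*Slc6a9*). In the fit of the 6 PIL and Con libraries the calls of *Rora*, *Klf9*, *Slc22a6*, *Edn1*, *Slc6a9*, *Klf4*, *Atf3*, *Hsp90aa1* and *Hspd1* were lost (adjusted p from 0.0552 for *Hsp90aa1* to 0.135 for *Slc6a9*), and with no filter that of *Hsp90aa1* in GKO against Con (0.0511).

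Log2 fold changes that changed sign belonged to genes not called. In PIL against Con these were, with PIL replicate 3 only, *Arntl2* (-0.12), *Timeless* (-0.44) and *Hlf* (0.35), and, with limma-voom, *Hlf* (0.32) and *Ciart* (0.28). On leaving out 1 library the values ran from -0.12 to 0.34 for *Cry2*, -0.33 to 0.45 for *Hlf*, -0.38 to 0.22 for *Nfil3*, -0.43 to 0.057 for *Ciart* and -0.093 to 0.47 for *Timeless*. *Arntl2* in GKO against PIL was 0.029 with limma-voom and 0.38 with PIL replicate 3 only, and ran from -0.31 to 0.17 on leaving out 1 library, *Nr1d2* from -0.31 to 0.23 and *Slc22a6* from -0.036 to 0.15. In GKO against Con *Rora* ran from -0.082 to 0.13, *Nfil3* from -0.16 to 0.47 and *Bhlhe41* from -0.36 to 0.070. The cause of these changes was not tested.

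Deviations from group means correlated at -0.14 to 0.29 between same-numbered libraries and at -0.34 to 0.25 between differently numbered ones. With 3 libraries a group, these values cannot settle whether replicate numbers pair the libraries. With the replicate number as a block, 0 members were called in PIL against Con, 0 in GKO against PIL and 3 in GKO against Con, 3 genes in all were called in GKO against PIL, and 0 other loop genes in GKO against Con, where *Bhlhe40* (adjusted p = 0.0845) and *Hsp90aa1* (0.0907) lost their calls, as *Atf3* did in PIL against Con (0.0591). With 3 libraries a group, differences below the replicate spread were not detectable. The lowest member count, 38 for *Dbp* in GKO replicate 3, limits the precision of its fold change.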

Other observations

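Lists of stress-responsive genes were read in the same edgeR fit. Over all genes it called 4.48% higher and 3.14% lower in PIL against Con, and 1.55% and 1.46% in GKO against Con. Of 15 tested immediate early genes 2 were called higher and 0 lower in PIL against Con. Of their log2 fold changes 13 of 15 were above 0 (7195 of 14069 over all genes), with a median of 0.57 (0.01 over all genes). PIL replicate 3 did not share this rise: in log2 CPM it lay below every Con library in *Junb*, *Egr2*, *Ier2*, *Nr4a1*, *Zfp36*, *Btg2* and *Fosb*. It lay inside the Con range in *Fos*, *Jun*, *Egr1*, *Egr3* and *Klf2*, and above every Con library in *Klf4* and *Atf3*. The called genes were *Klf4*, with 19.6, 21.7 and 13.2 CPM in PIL against 6.84, 10.5 and 7.45 CPM in Con (1.14 (SE 0.25), adjusted p = 0.0283), and *Atf3*, with 15.6, 7.04 and 3.16 CPM in PIL against 1.98, 2.61 and 1.56 CPM in Con (2.07 (SE 0.52), adjusted p = 0.0425). Both were lowest in PIL replicate 3 within PIL, and with it as the only PIL library, where the spread comes from the other groups, the log2 fold changes were 0.68 and 0.62 (adjusted p = 0.434 and 0.651, edgeR). In GKO against PIL and GKO against Con 0 immediate early genes were called by edgeR, with 5 and 0 at an unadjusted p under 0.05, 3 and 0 called by DESeq2, and 11 and 0 by limma-voom.

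Of 10 heat and cold shock genes 0 were called higher and 2 lower in PIL against Con, 0 in GKO against PIL (3 at an unadjusted p under 0.05, edgeR, 0 called by DESeq2 and 3 by limma-voom), and 0 higher and 1 lower in GKO against Con. *Hsp90aa1*, the inducible cytosolic HSP90, had 400.3, 446 and 415 CPM in the GKO libraries, 312, 268 and 392 CPM in the PIL libraries and 838, 674 and 621 CPM in the Con libraries. Con lay above both other groups, with log2 fold changes of -0.76 (SE 0.17) for GKO against Con (adjusted p = 0.0483, edgeR) and -1.13 (SE 0.17) for PIL against Con (adjusted p = 0.00833). *Hspd1*, the mitochondrial chaperonin HSP60, was lower in PIL than in Con (-0.92 (SE 0.20), adjusted p = 0.0276, edgeR), and its PIL level was highest in PIL replicate 3, at 556 CPM.

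Other marker lists, as summed CPM, were 43.2 to 102 in GKO, 599, 706 and 98.0 in PIL replicates 1, 2 and 3, and 9.35 to 38.1 in Con for 8 lymphocyte genes, and 5.28 to 9.62 in GKO, 12.6 to 73.3 in PIL and 4.61 to 38.4 in Con for 7 neutrophil genes. For 8 endothelial and fibroblast genes the sums were 385 to 467 in GKO, 575 to 1410.3 in PIL and 490 to 640 in Con, and for 10 genes of fat, muscle and adrenal gland 45.0 to 66.0 in GKO, 52.3 to 87.0 in PIL and 62.1 to 198 in Con. The part of these cell types in the clock gene values was not tested.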
